A study of Mus musculus with 58 samples.

Results

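The proteasome genes of the mouse prefrontal cortex are described here across the drug and genotype arms of a study of Tanc2, which codes for a scaffold protein of the postsynaptic side of excitatory synapses. Members were the protein-coding genes whose symbol is Psma, Psmb, Psmc, Psmd, Psme, Psmf or Psmg followed by a number, with a normalized read count of at least 10 in at least 4 libraries. This gave 47 members among 17925 genes tested. Psmb11, a thymus-restricted subunit, has such a symbol but reached 10 in 3 libraries and was left out, with 19.03 as its highest value.

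The 58 libraries were made from polyadenylated RNA, with strand marking, of prefrontal cortex from C57BL/6J mice that were heterozygous for Tanc2 (HT) or wild type (WT). Fluoxetine, a serotonin reuptake inhibitor, lithium, a mood stabilizer, or vehicle was given through the milk of the mother for 3 weeks, from postnatal day 3 to 24, and tissue was taken on postnatal day 25. HT mice gave 10 fluoxetine, 9 lithium and 10 vehicle libraries, and WT mice gave 10, 10 and 9, with 4 or 5 of each sex in every arm. Neither the dose each pup took in nor its litter is given in the sources used here, so p-values measure only the spread between these libraries, and pups that shared a treated mother cannot be told from pups that did not.

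The proteasome is the protease that degrades proteins tagged with ubiquitin, and in neurons it also acts at synapses, where it takes part in plasticity. Its 20S core is a barrel of outer alpha rings and inner beta rings, with the cutting sites on the beta subunits. The 19S cap unfolds substrates with a ring of ATPases and removes ubiquitin, and separate chaperones put core and cap together. After interferon signals, inducible beta subunits replace the constitutive ones, and the PA28 activators can take the place of the cap.

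Recovered reads per library ran from 23271044 to 37801615, with a median of 27912119. Sex-linked genes matched the sex label in 58 of 58 libraries. Tanc2 had a median of 8150 (6240 to 9106) normalized counts in 29 HT libraries, against 7637 (6566 to 8155) in 29 WT libraries, so the targeted gene was not lower in HT and its counts do not check the genotype labels. The cortical markers Tbr1 and Emx1 were detected in every library. One library feature follows the drugs. Gm10221, a gene model, had reads in 27 libraries, namely all lithium libraries, the 5 HT fluoxetine females and 3 of 5 WT fluoxetine females, and had none in the other 31. The mitochondrially coded mt-Atp6 had a median of 50741 in HT lithium, against 22913 in HT vehicle libraries, and of 43670 in WT lithium, against 20235 in WT vehicle libraries. Under fluoxetine its median was 41111 in HT and 29644 in WT libraries, also above the vehicle medians. Lithium and the presence of Gm10221 reads cannot be told apart, and the part of mt-Atp6 in the results was not tested.

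Upstream sequences are given for Psmc2, Psma7 and Psmd12, which are among the 4 members with the smallest p under lithium in HT. Psmb5 and Psmb6, catalytic subunits not called in any drug effect, were added because they hold the antioxidant core described below. Only windows with a match are printed, so each holds one by choice, and another Psmc2 window without a match is left out. Each run is the 250 bases before the annotated start, from RefSeq on build GRCm38.p6. Capitals mark the CCAAT box (CCAAT) in the first pair and the core of the antioxidant response element (TGACNNNGC, N any base), which NFE2L1 and NFE2L2 bind, in the others, on either strand. Psmc2 lies at chr5:21785025-21785274 on the plus strand, Psma7 at chr2:180042465-180042714 on the minus strand, Psmd12 at chr11:107479278-107479527 on the plus strand, Psmb5 at chr14:54617996-54618245 on the minus strand and Psmb6 at chr11:70525107-70525356 on the plus strand.
Psmc2: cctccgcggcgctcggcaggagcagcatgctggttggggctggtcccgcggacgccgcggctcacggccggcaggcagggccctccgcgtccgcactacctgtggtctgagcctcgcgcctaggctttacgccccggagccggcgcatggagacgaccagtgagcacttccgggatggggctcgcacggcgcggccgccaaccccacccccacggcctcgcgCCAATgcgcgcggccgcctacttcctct
Psma7: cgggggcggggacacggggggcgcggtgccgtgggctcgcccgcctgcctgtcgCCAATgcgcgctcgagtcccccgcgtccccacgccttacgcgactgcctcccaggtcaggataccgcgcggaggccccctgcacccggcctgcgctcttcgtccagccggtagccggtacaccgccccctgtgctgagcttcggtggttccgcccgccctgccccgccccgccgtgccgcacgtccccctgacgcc
Psmd12: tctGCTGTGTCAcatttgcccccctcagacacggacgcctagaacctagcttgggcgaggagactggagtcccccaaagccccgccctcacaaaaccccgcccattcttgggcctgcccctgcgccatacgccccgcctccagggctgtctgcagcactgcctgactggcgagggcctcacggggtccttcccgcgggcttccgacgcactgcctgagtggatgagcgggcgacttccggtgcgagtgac
Psmb5: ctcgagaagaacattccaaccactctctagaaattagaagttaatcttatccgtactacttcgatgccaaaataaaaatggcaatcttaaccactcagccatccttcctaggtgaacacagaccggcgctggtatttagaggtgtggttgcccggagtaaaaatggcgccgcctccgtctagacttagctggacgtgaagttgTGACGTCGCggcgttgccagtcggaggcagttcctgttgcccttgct
Psmb6: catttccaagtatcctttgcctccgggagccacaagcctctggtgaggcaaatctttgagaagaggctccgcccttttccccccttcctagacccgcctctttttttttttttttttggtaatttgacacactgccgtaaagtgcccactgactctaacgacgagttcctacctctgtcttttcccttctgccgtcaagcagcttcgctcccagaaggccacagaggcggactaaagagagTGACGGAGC

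Of the 47 members, 39 had a RefSeq window, and Psmb1 and Psmb7 were among those without one. The antioxidant core was in windows of 5 of these 39 (12.8%), against 11.5% of 27025 genes. Its holders were Psmb5, Psmb6, Psmc6, Psmd9 and Psmd12, of which Psmd12 alone was called under a drug. The CCAAT box was in 13 of 39 (33.3%), against 37.5% of all genes, and in 6 of 11 members called under lithium in HT that had a window. The core of the interferon-stimulated response element was in 3 of 39 (7.69%), against 3.46% of all genes, and in 0 of those 11. In Psmd12 the match lies 247 to 239 bases before the start on the opposite strand, while in Psmb5 it lies 47 to 39 and in Psmb6 9 to 1 bases before it on the strand of the gene. These are letter matches, not sites.

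Levels were compared per length, as normalized count per kilobase of 1 annotated transcript a gene, in WT vehicle libraries (n = 9). The 19S ATPases ran from 971 to 2453 with a median of 1576, the constitutive beta subunits from 1376 to 2291 with a median of 1628, and the 19S non-ATPases from 587 to 1912 with a median of 1286. The alpha ring had a median of 1385 and the widest range, since it includes Psma8. The 3 chaperones of the cap ran from 203 to 264, the 4 chaperones of the core from 146 to 275 and the class of 4 activators and 1 inhibitor from 240 to 1077, below those structural medians.

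**Figure D1:**
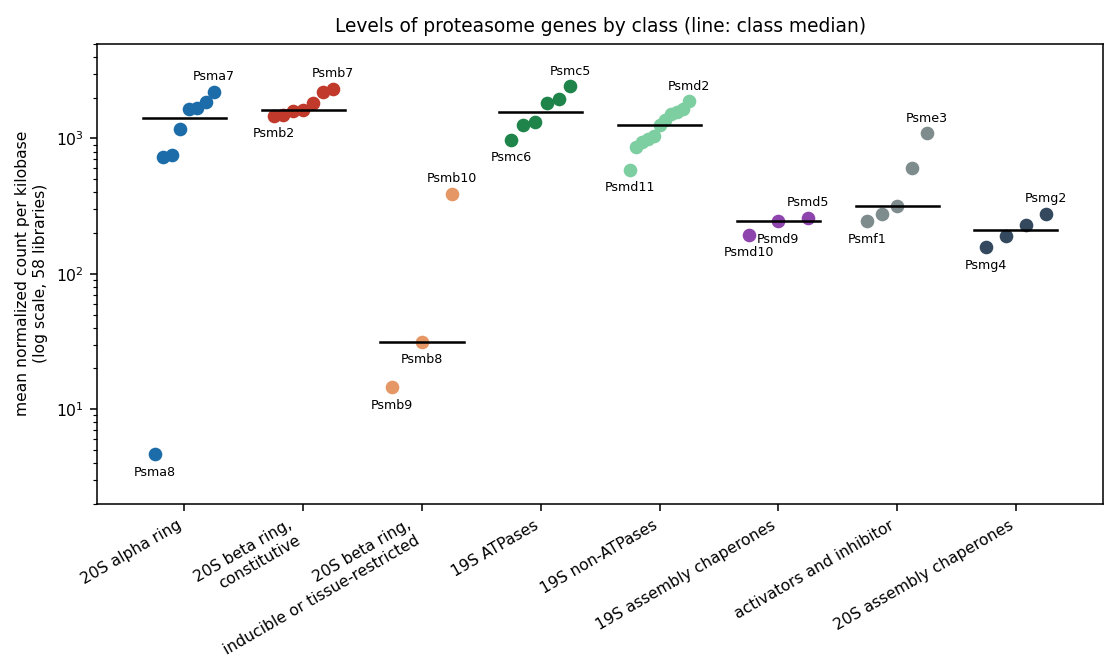
Mean normalized count per kilobase of each of the 47 members over 58 libraries, on a log axis, by class, with a line at the class median; the lowest and highest members of each class are named. Psma8, Psmb9 and Psmb8 lie far below the other members of the rings.

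Psmc5, an ATPase of the cap, was the highest member, at 2453 ± 114 (SD, n = 9). The highest members of the other classes were Psma7 (2136 ± 35.1) of the alpha ring, Psmb7 (2291 ± 144) of the constitutive beta ring, Psmb10 (379 ± 28.8) of the inducible subunits, Psmd2 (1912 ± 62.5) of the non-ATPases, Psmd5 (264 ± 19.2) of the cap chaperones, Psme3 (1077 ± 40.5) of the activators and Psmg2 (275 ± 33.6) of the core chaperones. Neighbours in this order often differ by less than 1 SD, as Psmb5 (1816 ± 76.3) and Psmc1 (1830 ± 66.9) do. Psma8, an alpha subunit known from the testis, lay at 5.37 ± 1.82 and Psmb9 at 11.9 ± 3.76. Psma8 reached a normalized count of 10 in 16 libraries, the fewest among members. Reads of Psma5 and Psmb5 are uncertain, because 58.7% and 71.7% of their words of 31 bases also occur on the same strand in transcripts of other genes. No called member passed 50%, and Psma4 (18.2%) was the called member with the largest such share.

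Under lithium, 14 of 47 members rose in HT mice and none fell (29.8%, where 8.25% of all genes tested were called higher and 16.3% in either direction). Called means a Benjamini-Hochberg adjusted p under 0.05 in limma, which was fitted over all genes with log2(normalized count + 1). The median log2 difference of the members was 0.0674, against 4.88e-05 over all genes, and 35 of 47 were above 0, against 50% of all genes. The changes were small, with folds of 1.06 to 1.25 among the 14. More cells of a type and more RNA per cell cannot be told apart in bulk tissue.

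**Figure D2:**
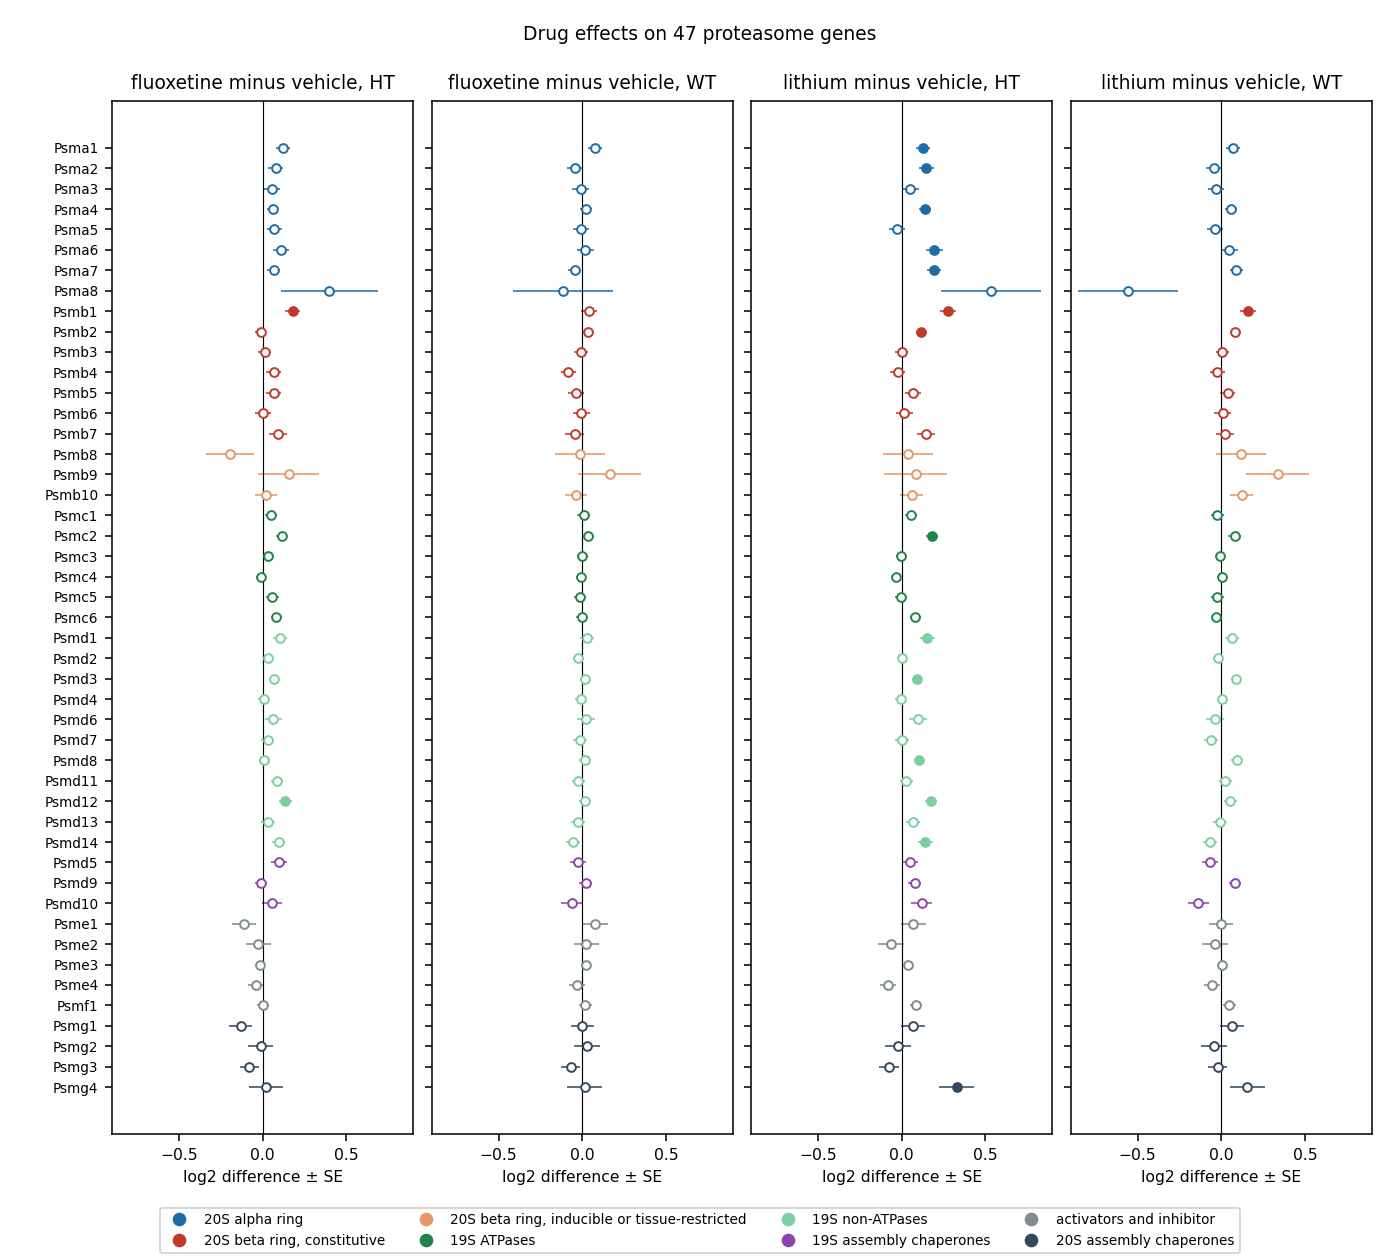
Log2 difference from vehicle with its SE for each of the 47 members (rows, coloured by class) under fluoxetine and lithium in HT and WT mice. Filled points passed the test. Lithium in HT has 14 filled points, fluoxetine in HT 2, lithium in WT 1 and fluoxetine in WT none.

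Psmb1 (ENSMUSG00000014769, chr17:15475021-15499751 on the minus strand, GRCm38), a beta subunit that carries no cutting site, had the smallest p. Its normalized counts had a lowest value of 2550, a median of 2844 and a highest of 3455 in HT lithium libraries, against 2186, 2402 and 2543 in HT vehicle libraries. All 9 lithium libraries lay above the highest vehicle library, so the arms did not overlap. Psmb1 was the one member for which this held, and the share of all genes with such separation was not counted. The difference was 0.27 ± 0.047 (log2 ± SE, adjusted p 4.2e-05, limma), a 1.21-fold rise.

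Psmc2 (chr5:21785283-21803787, plus strand), an ATPase of the cap, ran from 2221 to 2668 with a median of 2341 in HT lithium libraries, against 1866 to 2238 with a median of 2082 in HT vehicle libraries. Lithium libraries lay above the highest vehicle library in 7 of 9 cases and the arms overlapped. The rise was 0.18 ± 0.0379 (adjusted p 0.000609, limma). Psma7 (chr2:180036374-180042433, minus strand), an alpha ring subunit, ran from 1953 to 2632 with a median of 2171 in HT lithium, against 1737 to 2102 with a median of 1933 in HT vehicle libraries. In 8 of 9 lithium libraries it was above the highest vehicle library. It rose by 0.19 ± 0.0407 (adjusted p 0.000628, limma). Psmd12 (chr11:107479484-107504362, plus strand), a scaffold subunit of the cap lid, ran from 1585 to 1877 with a median of 1742 in HT lithium, against 1452 to 1707 with a median of 1533 in HT vehicle libraries. The arms overlapped, with 5 of 9 lithium libraries above the highest vehicle library. It rose by 0.17 ± 0.0372 (adjusted p 0.000764, limma).

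**Figure D3:**
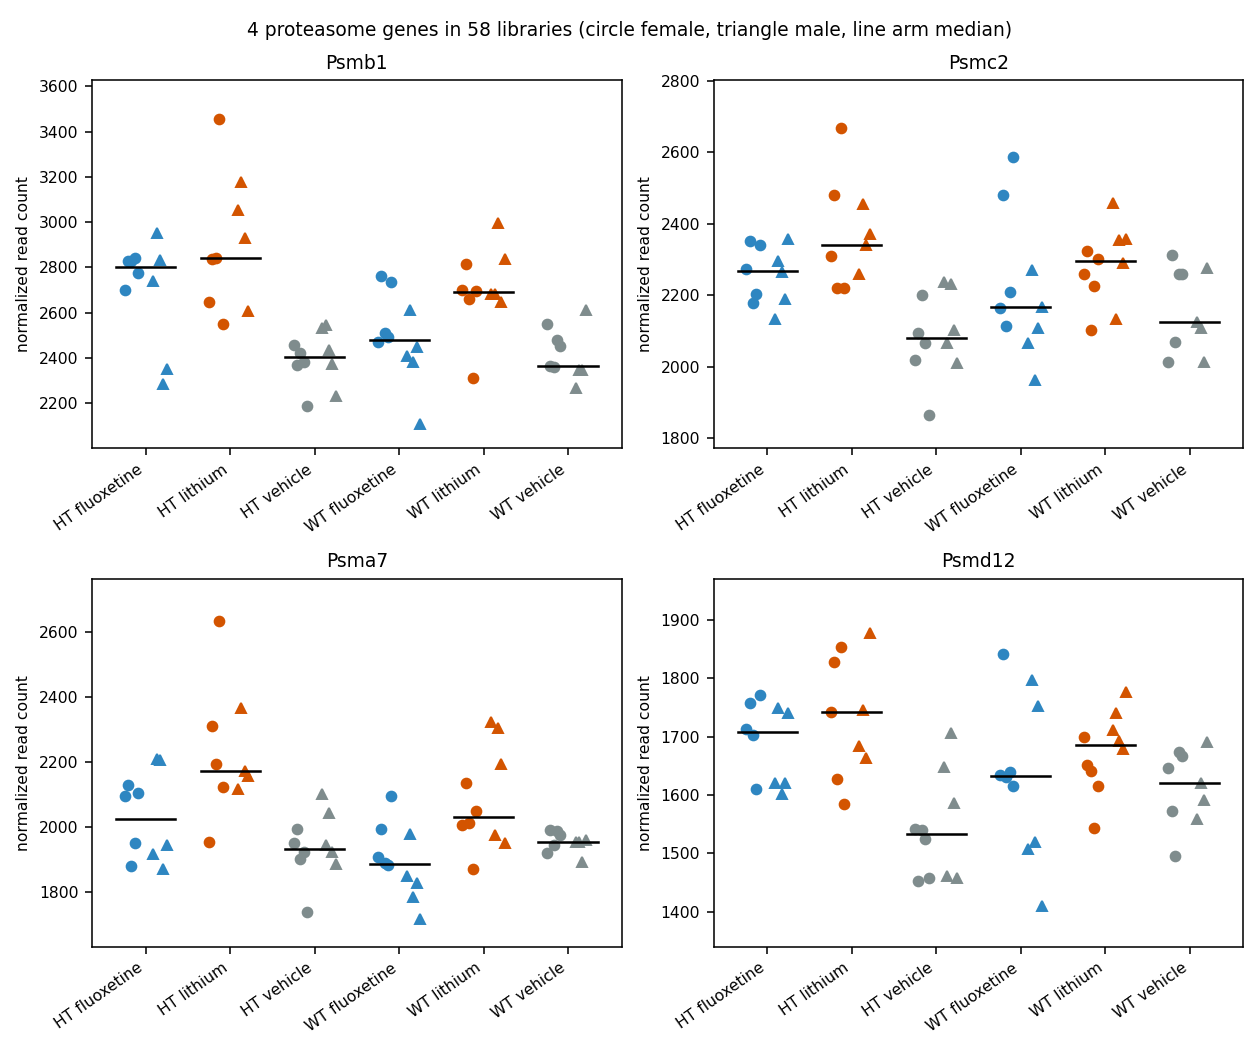
Normalized read counts of Psmb1, Psmc2, Psma7 and Psmd12 in 58 libraries by arm (the vertical axes do not start at 0). Circles are females, triangles males and lines arm medians. The 9 HT lithium values of Psmb1 lie above all 10 HT vehicle values, and in the other panels the arms overlap.

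By class, the alpha ring had 5 of 8 members called (Psma1, Psma2, Psma4, Psma6 and Psma7) and a class median of 0.142. The non-ATPases of the cap had 5 of 11 (Psmd1, Psmd3, Psmd8, Psmd12 and Psmd14, the last the subunit that removes ubiquitin) and a median of 0.0897. Of the 7 constitutive beta subunits, Psmb1 and Psmb2 were called. Both are noncatalytic, but the noncatalytic Psmb3 and Psmb4 were not called. The catalytic Psmb5, Psmb6 and Psmb7 were not called either, with differences of 0.07 ± 0.0455, 0.01 ± 0.0499 and 0.14 ± 0.0548. Of the 6 ATPases Psmc2 alone was called, and the class median was 0.0254. Among the chaperones of the core, Psmg4 was called at 0.33 ± 0.105 (adjusted p 0.0263, limma), from a low level: its median was 104 in HT lithium, against 80.6 in HT vehicle libraries. No activator, inhibitor, cap chaperone or inducible beta subunit was called. In classes this small, a count of 0 or 1 is not set apart from the 8.25% of all genes called higher.

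The highest members of the other classes did not pass. The normalized count of Psmc5 had a median of 3145 (2852 to 3476) in HT lithium, against 3090.0 (2948 to 3397) in HT vehicle libraries. Psmd2, a scaffold subunit of the cap base, had 5538 (5194 to 5722) in HT lithium, against 5466 (5150 to 5814) in HT vehicle libraries. Psmd5, a cap chaperone, had 1153 (1079 to 1218) in HT lithium, against 1122 (989.5 to 1211) in HT vehicle libraries, and the arms overlapped for all of them. Their adjusted p were 0.965, 0.981 and 0.526 (limma). Just outside the threshold stood Psmb7, at an adjusted p of 0.0637, and Psmc6, an ATPase, at 0.0909 (limma).

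In WT mice lithium raised 1 of 47 members, again Psmb1. This is 2.13% of the members, below the 4.34% of all genes called higher (7.47% in either direction). Psmb1 ran from 2312 to 2999 with a median of 2689 in WT lithium, against 2265 to 2612 with a median of 2366 in WT vehicle libraries. In 9 of 10 lithium libraries it was above the highest vehicle library, and WT lithium female 4 was the exception. The rise was 0.16 ± 0.047 (adjusted p 0.026, limma). The next member was Psmd3, a lid subunit, at 0.09 ± 0.031 (adjusted p 0.0617, limma). The median over members was 0.00696, against -0.00555 over all genes. The call of Psmb1 was lost, with 0 members called, without WT lithium female 2, WT lithium male 3, WT vehicle male 1 or WT vehicle male 2. Without WT lithium male 4, 2 members were called. These counts stand without the share of all genes called in the same fits, so they do not tell whether the members alone moved.

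**Figure D4:**
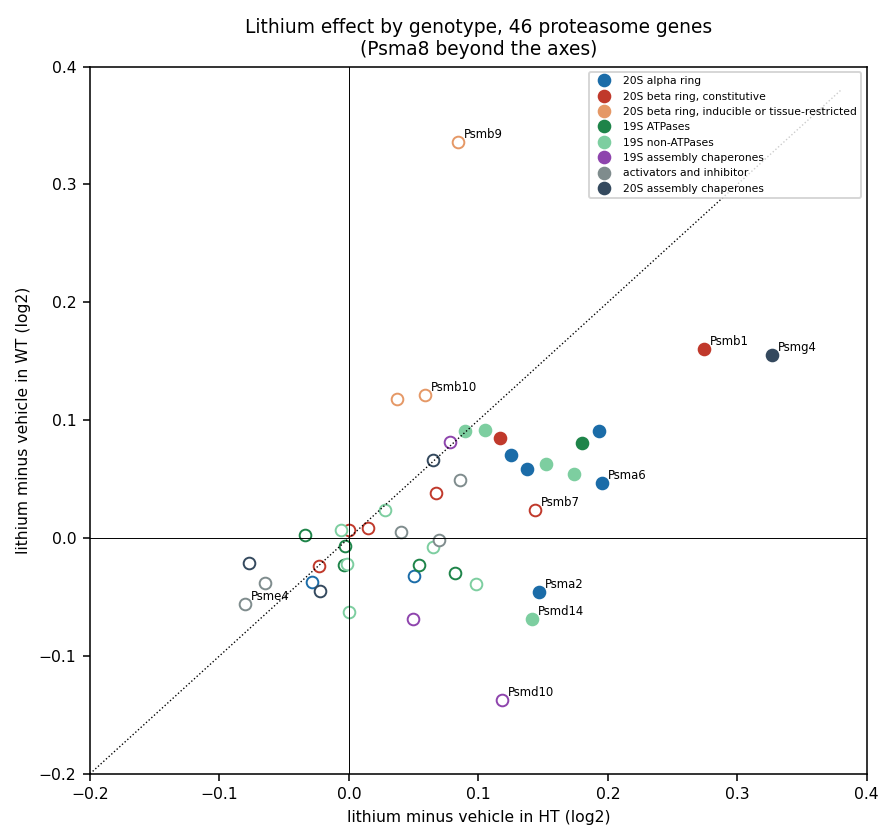
Log2 difference between lithium and vehicle in HT (horizontal) and WT (vertical) mice for 46 members, coloured by class; filled points were called in HT and the dotted line marks equality. Psma8 (0.53 in HT and -0.56 in WT) lies beyond the axes. Psma2 and Psmd14 are above 0 in HT and below 0 in WT.

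No member passed the test of a different response to lithium in HT and WT mice. The interaction was called for 0 of 47 members and for 0 of 17925 genes with limma (background 0%). With edgeR and with DESeq2 it was called for 0 members. An unadjusted p under 0.05 (limma) was held by 1196 of 17925 genes, among them 7 members. Among members, the smallest p belonged to Psmd14 and Psma2. For Psmd14, lithium gave 0.14 ± 0.0425 in HT and -0.07 ± 0.0425 in WT, an interaction of 0.21 ± 0.0601 (adjusted p 0.497, limma). For Psma2, it gave 0.15 ± 0.0469 in HT and -0.05 ± 0.0469 in WT, an interaction of 0.19 ± 0.0663 (adjusted p 0.635, limma). The medians of Psmd14 were 2037 in HT lithium, against 1828 in HT vehicle libraries, and 1905 in WT lithium, against 1975 in WT vehicle libraries, and the arms overlapped. The effects in HT and WT, which share no library, had the same sign for 32 of 47 members. Their Pearson r over members was 0.46 without Psma8 (46 members) and -0.20 with it.

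Fluoxetine raised 2 of 47 members in HT mice, Psmb1 and Psmd12 (1.46% of all genes were called higher and 3.54% in either direction), and lowered none. Psmb1 ran from 2286 to 2951 with a median of 2801 in HT fluoxetine, against 2186 to 2543 with a median of 2402 in HT vehicle libraries. In 8 of 10 fluoxetine libraries it was above the highest vehicle library, and 2 males were not. The rise was 0.18 ± 0.0456 (adjusted p 0.0169, limma). Psmd12 ran from 1601 to 1771 with a median of 1708 in HT fluoxetine, against 1452 to 1707 with a median of 1533 in HT vehicle libraries. All 10 fluoxetine libraries were above the vehicle mean of their own sex, and 5 were above the highest vehicle library. The rise was 0.14 ± 0.0361 (adjusted p 0.0225, limma). The members had a median of 0.0563, against 0.00314 over all genes, and 36 of 47 were above 0, against 51.3% of all genes. The alpha ring was above 0 for 8 of 8 members and the non-ATPases of the cap for 11 of 11, while the 4 activators, Psme1 to Psme4, were below 0 and the inhibitor Psmf1 stood at 0.00 ± 0.0362. None of these classes' members passed the test under fluoxetine other than Psmd12. Both HT drug effects were measured against the same vehicle libraries. Members also share all their libraries, so counts above 0 are not counts of independent results. Without HT fluoxetine male 2, 0 members were called, and without HT vehicle male 2 or HT vehicle male 5, 1 was. The share of all genes called in these fits is not given here, so they do not tell whether the members alone moved.

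In WT mice no member passed the test under fluoxetine (0 of 47, with 0.469% of all genes called higher and 1.38% either way, limma). With edgeR and DESeq2 the count was also 0. An unadjusted p under 0.05 (limma) was held by 1885 of 17925 genes and by none of the members. The smallest p were those of Psmb4, a noncatalytic beta subunit, at -0.08 ± 0.0448 (adjusted p 0.538, limma) and Psma1 at 0.07 ± 0.0425 (adjusted p 0.59, limma). Psmb4 ran from 1566 to 2244 with a median of 1832 in WT fluoxetine, against 1793 to 2021 with a median of 1957 in WT vehicle libraries. Psma1 ran from 1814 to 2353 with a median of 1948 in WT fluoxetine, against 1783 to 2042 with a median of 1865 in WT vehicle libraries. Both pairs of arms overlapped. The interaction of fluoxetine and genotype was called for 0 members and 0 genes (background 0%, limma, and 0 members with edgeR and DESeq2). At an unadjusted p under 0.05 (limma) there were 1128 of 17925 genes, among them 4 members. Among members, the p of this interaction was smallest for Psmd14 (0.15 ± 0.0592, adjusted p 0.792, limma) and Psmb4 (0.15 ± 0.0624, adjusted p 0.792, limma).

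No member passed the test for genotype. Called members were 0 of 47 under vehicle, fluoxetine and lithium, as were called genes (background 0% each, limma, and 0 members with edgeR and DESeq2). At an unadjusted p under 0.05 (limma) there were 814, 1114 and 2006 of 17925 genes, among them 1, 4 and 10 members. Under vehicle, Psmd14 (-0.10 ± 0.0425, adjusted p 0.947, limma) and Psmd1, a scaffold subunit of the cap base (-0.08 ± 0.0434, adjusted p 0.947, limma), had the smallest p. Under fluoxetine, Psmb4 (0.12 ± 0.0434, adjusted p 0.675, limma) and Psmb1 (0.12 ± 0.0456, adjusted p 0.683, limma) had them. Under lithium, Psma2 (0.15 ± 0.0469, adjusted p 0.195, limma) and Psma6, an alpha subunit (0.13 ± 0.0506, adjusted p 0.289, limma), had them.

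The inducible subunits were not called in any comparison, and Psmb8 and Psmb9 were low. With so few genes, no calls is near the share of all genes called higher under lithium in HT (8.25%). Psmb8 (chr17:34197721-34201454, plus strand), which replaces Psmb5, had a median of 69.0 (32.5 to 80.0) in HT lithium, against 57.0 (37.0 to 89.3) in HT vehicle libraries, where Psmb5 had 1643 (1523 to 1945) and 1618 (1412 to 1751). Psmb9 (chr17:34181987-34187764, minus strand), which replaces Psmb6, had 17.7 (11.98 to 36.9) in HT lithium, against 19.5 (9.995 to 37.9) in HT vehicle libraries, where Psmb6 had 1751 (1610 to 2342) and 1788 (1594 to 1914). Psmb10, which replaces Psmb7, had 518 (461 to 652) in HT lithium, against 519 (428 to 558) in HT vehicle libraries, where Psmb7 had 2807 (2441 to 3547) and 2600 (2261 to 2822). All these pairs overlapped. In WT mice the lithium differences were 0.12 ± 0.149 for Psmb8, 0.34 ± 0.188 for Psmb9 and 0.12 ± 0.0668 for Psmb10, none past the test. Between genotypes under vehicle they were 0.28 ± 0.149, 0.32 ± 0.188 and 0.01 ± 0.0668, none past the test. HT vehicle male 1 held the highest HT vehicle values of Psmb8 and Psmb9, 89.3 and 37.9. It also had the highest summed level of 17 antigen presentation and interferon genes among all libraries, 9579 where the HT vehicle median was 5691, and their part in the spread of these subunits was not tested. Of those 17 genes lithium raised 2 in each genotype, a count near the share of all genes called higher in HT (8.25%; 4.34% in WT), among them B2m, the light chain of the class I molecules, at 0.27 ± 0.0508 in HT (adjusted p 0.000166, limma).

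No activator passed the test. Psme1 and Psme2, the PA28 subunits, differed under lithium in HT by 0.07 ± 0.0745 and -0.06 ± 0.0755, Psme3, the nuclear activator, by 0.04 ± 0.0274 and Psme4, the PA200 activator, by -0.08 ± 0.0474. Their medians in HT lithium were 713, 269, 2962 and 2018, against 659, 270.4, 2908 and 2091 in HT vehicle libraries, and the arms overlapped for each. Under fluoxetine in HT they differed by -0.11 ± 0.0722, -0.03 ± 0.0732, -0.02 ± 0.0266 and -0.04 ± 0.046. None of these differences passed the test. Of all genes, 8.25% were called higher under lithium in HT and 1.46% under fluoxetine in HT. No calls among so few genes is near those shares.

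No member passed the test of a different drug effect in females and males. The difference of the drug effect between females and males was called for 0 members in each of 4 comparisons (limma; edgeR and DESeq2 also 0), with 0.0112% of all genes called higher for fluoxetine in HT and 0% for the others. At an unadjusted p under 0.05 (limma) there were 2 members for fluoxetine in HT, 1 for fluoxetine in WT, 1 for lithium in HT and 1 for lithium in WT. Of all 17925 genes, 764, 330, 510 and 472 were under it, in the same order. The members nearest the test were Psmd1 and Psmd11 for fluoxetine in HT (0.22 ± 0.0843 and 0.17 ± 0.0749), Psmd5 and Psmb3 for fluoxetine in WT (0.21 ± 0.0935 and -0.11 ± 0.0806), Psmd14 and Psmb9 for lithium in HT (0.18 ± 0.085 and -0.55 ± 0.376) and Psma5 and Psmd6 for lithium in WT (-0.22 ± 0.0925 and -0.21 ± 0.107), with an adjusted p of 1 in limma for each. Within 1 sex of the same fit, lithium raised 7 members in HT females (3.41% of all genes called higher) and 1 in HT males (1.78%). Fluoxetine raised 3 in HT females (1.07%) and 0 in HT males (0.0502%). For fluoxetine in HT males 0 members had an unadjusted p under 0.05 (limma), where 1068 of 17925 genes did. In WT mice lithium raised 0 members in females (1.12%) and 0 in males (0.759%). Psmb1 differed by 0.27 ± 0.0645 in HT females and by 0.28 ± 0.0684 in HT males under lithium. Counts within a sex rest on fewer libraries than the count over both, and these comparisons were added after the data had been seen.

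HT lithium females and HT fluoxetine females all had Gm10221 reads, at different levels: normalized counts were 203, 153, 186, 256.1 and 204 in HT lithium females, against 61.0, 230.3, 106, 209 and 82.8 in HT fluoxetine females. Between these groups 0 of 47 members were called (0.285% of all genes higher, limma). At an unadjusted p under 0.05 (limma) there were 8 members, and 2340 of 17925 genes. The member nearest the test was Psmb2 (0.18 ± 0.0459, adjusted p 0.0544, limma). With a term for the presence of Gm10221 reads and sex as an additive term in place of the 12 groups, 0 members and 0% of all genes were called higher for lithium in HT, 0 members for lithium in WT (0.0112% of all genes), 0 for fluoxetine in HT (0.268%) and 0 for fluoxetine in WT (0.245%). Presence and absence occur together in the fluoxetine arms alone. In that fit the lithium difference in HT was 0.18 ± 0.0713 for Psmb1 (adjusted p 0.222, limma). It was 0.15 ± 0.0591 for Psmc2 (adjusted p 0.196, limma) and 0.17 ± 0.0629 for Psma7 (adjusted p 0.184, limma). For Psmd12 it was 0.08 ± 0.0552 (adjusted p 0.457, limma). Each of these differences was smaller than in the fit with 12 groups, and each SE was larger. The median over all members was 0.0849, against 0.0674 in the fit with 12 groups. The reason for this was not tested. In WT fluoxetine females, the 3 libraries with Gm10221 reads averaged above the 2 without on the log2 scale for 16 of 47 members, with a median log2 difference of -0.06, and for 6 of the 14 members called under lithium in HT (median -0.02). One of the 2 without, WT fluoxetine female 5, stands apart from the others. Without it the counts were 21 of 47 (median -0.01) and 9 of 14 (median 0.04). Without WT fluoxetine female 3 they were 19 of 47 (median -0.05) and 9 of 14 (median 0.01). Without WT fluoxetine female 1, 2 or 4, the 14 members gave 6, 4 and 7 above, with medians of -0.06, -0.06 and -0.02. The direction for the 14 members thus rests on single libraries, while the median over all 47 stayed below 0 each time.

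The count models run on recovered reads gave similar numbers. With edgeR, 14 members rose under lithium in HT (8.31% of all genes), 2 under lithium in WT (4.62%), 2 under fluoxetine in HT (1.37%) and 0 under fluoxetine in WT (0.491%). With DESeq2 these were 15 (8.53%), 2 (5%), 2 (1.72%) and 0 (0.619%).

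Among HT fluoxetine males, which lack Gm10221 reads, Psmb1 differed from vehicle by 0.11 ± 0.0645 and Psmd12 by 0.09 ± 0.0511, below the test.

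Some libraries weigh on the lithium count in HT. HT lithium female 4 had a median log2 ratio of 0.25 over the members, relative to HT vehicle females, while the other 8 HT lithium libraries lay between -0.0022 and 0.107. Without it 8 of 47 members were called and the median over members was 0.0369. Without HT lithium male 2 or without HT vehicle male 5, 9 members were called. The share of all genes called in these fits is not given here, so the counts do not tell whether the members alone moved. Psmb1, Psmc2, Psma7 and Psmd12 were called in all 3 of these fits, as were Psma4, Psma6, Psmd1 and Psmb2.

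**Figure D5:**
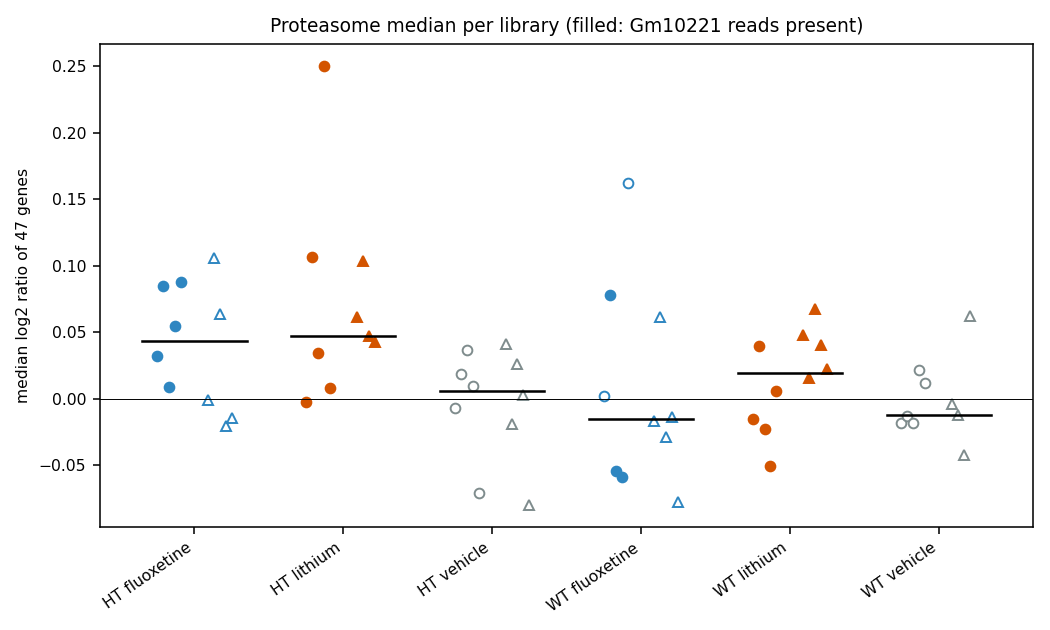
Median over the 47 members of the log2 ratio to the vehicle libraries of the same genotype and sex (a vehicle library is set against the others of its group), by arm. Circles are females, triangles males, filled points have Gm10221 reads and lines are arm medians. HT lithium female 4 stands at 0.25, and WT fluoxetine female 5 at 0.16 without Gm10221 reads.

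Base composition moved with 3 of the 4 drug effects. Over the 47 members, which share libraries, Pearson r between the log2 difference and the GC content of the transcript was -0.32 for lithium in HT, -0.46 for fluoxetine in HT and 0.40 for lithium in WT, with the opposite sign, and 0.14 for fluoxetine in WT. The 14 called members had a median GC content of 46.7%, against 51.5% in the 33 others and 49.9% over all genes. After removal of each library's trends with length and base composition of the transcripts, 10 members rose under lithium in HT (8.56% of all genes), 1 under lithium in WT (3.49%), 1 under fluoxetine in HT (1.4%) and 0 under fluoxetine in WT (0.603%). Psmb1 was among them in the first 3 of these, and Psmc2, Psma7 and Psmd12 under lithium in HT. The part of base composition was not otherwise tested.

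The summed markers of neurons, astrocytes, oligodendrocytes, microglia, endothelium, blood and neighbouring tissue overlapped between each drug and its vehicle arm. The summed oligodendrocyte markers had a median of 81627 (58593 to 123311) in HT lithium, against 96444 (58270 to 117757) in HT vehicle libraries, and the summed neuronal markers 178675 (168097 to 203754) in HT lithium, against 176159 (161361 to 194932) in HT vehicle libraries. Markers of neighbouring tissue (Eomes, Th, Drd1, Drd2 and Ppp1r1b, 5 of 5 in the table, Eomes at 0 in 1 library) summed to a median of 3021 (2220 to 8290) in HT lithium, against 2468 (2039 to 2937) in HT vehicle libraries, with the highest value in HT lithium female 2. Their part in the results was not tested.

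Partners and regulators of the proteasome were also among the genes that rose. Of 29 partners and regulators measured, lithium raised 8 and lowered 1 in HT mice, with a median of 0.0463, where 8.25% of all genes were called higher, and raised 2 in WT mice, where 4.34% were. Fluoxetine raised 1 in HT mice, where 1.46% of all genes were called higher, and 0 in WT mice, where 0.469% were. With 1 or 2 genes, the counts for lithium in WT and fluoxetine in HT are near those shares. Pomp, the chaperone that matures the 20S core, rose in HT under lithium by 0.22 ± 0.0439 (adjusted p 0.000421, limma) and under fluoxetine by 0.14 ± 0.0426 (adjusted p 0.0443, limma), and in WT under lithium by 0.18 ± 0.0439 (adjusted p 0.00611, limma). Its median was 1835 in HT lithium and 1807 in HT fluoxetine, against 1617 in HT vehicle libraries, and 1772 in WT lithium, against 1588 in WT vehicle libraries. Rad23b, which carries ubiquitin-tagged proteins to the cap, rose under lithium in HT by 0.22 ± 0.0381 (adjusted p 4.99e-05, limma). Ubqln2 and Ubqln1, shuttle proteins of the same kind, rose there by 0.17 ± 0.0328 and 0.15 ± 0.0311. Ubqln2 rose also in WT, by 0.15 ± 0.0328 (adjusted p 0.00245, limma). Txnl1, a thioredoxin bound to the cap, and Akirin2, which brings proteasomes into the nucleus, rose under lithium in HT by 0.13 ± 0.0343 and 0.11 ± 0.029. Ddi2, the protease that activates NFE2L1, was the gene that fell, by 0.21 on the log2 scale (adjusted p 0.011, limma), and Nfe2l1, the transcription factor that raises proteasome genes when the proteasome is inhibited, differed by -0.04 ± 0.0528.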

How the data were processed

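Polyadenylated RNA from 58 prefrontal cortex libraries was sequenced. Per the submitters' processing notes, Salmon 0.11.2, R 3.6.0 and DESeq2 1.19.11 were used with build GRCm38; their settings are not given in the sources used here. The deposited signal is a read count per Ensembl gene divided by a size factor of the library, for 18088 genes. Multiples of 1 step per library (0.788 to 1.30) gave whole reads for 100% of values within 0.01. Recovered reads came to 23271044 to 37801615 per library.

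From these values, limma 3.58.1 in R 4.3.3 was fitted on log2(normalized count + 1), with 12 groups of genotype, drug and sex in 1 fit, sexes weighed equally, and a trend of variance with level. Genes reaching 10 in 4 or more libraries were tested, 17925 in all. P-values are two-sided, with Benjamini-Hochberg adjustment over all of them. Fold changes are on this log2 scale and understate the change of low genes. edgeR 4.0.16 (quasi-likelihood) and DESeq2 1.42.0 were run on the recovered reads as alternatives, beside other pseudocounts, filters, normalizations, sample sets, a replicate block, removal of transcript length and GC trends, a term for Gm10221 reads, and each library left out. The fits were tested on simulated data.

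Members given in full were the 4 with the smallest p in each direction among those called under a drug (2 where none was), the highest per length in each class, the inducible subunits with their constitutive counterparts and Psme1 to Psme4; for other comparisons, the 2 with the smallest p. Members and lists were chosen with earlier results of these data known. Comparisons within 1 sex, leaving out single WT fluoxetine females in the comparison by Gm10221 reads, and 2 settings (sex additive without the Gm10221 term, and the replicate block with length and GC trends removed), were added after seeing the data. Lengths, GC content and shared words came from GENCODE M21 on GRCm38, which held 18077 of the genes. No 2 libraries agreed within sampling noise (lowest chi-square per degree of freedom 3.29 over 1653 pairs).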

Additional observations from a re-analysis of the deposited data

Results flagged for a closer look

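In 12 of 174 sets (29 members in 6 arms), 1 library stood apart from the rest of its arm, with a gap to its neighbour that was large for the range of the arm. Chance alone gives about 1 in 20 such sets, or 8.7 here. HT lithium female 4 was highest for Psma1 at 2441 (next 2139), for Psmb2 at 1624 (next 1364) and for Psmd3 at 3444 (next 3069), and lowest for Psme4 at 1645 (next 1919.9). WT fluoxetine female 5 was highest for Psmb4 at 2244 (next 1917) and for Psmd2 at 6533 (next 5668). WT lithium male 1 was highest for Psma1 at 2232 (next 2041) and for Psmb9 at 37.3 (next 20.2). WT lithium female 4 was lowest for Psmb1 at 2312 (next 2648), WT fluoxetine female 2 highest for Psma2 at 2432 (next 2124), WT vehicle female 2 highest for Psmd1 at 3716 (next 3128) and HT vehicle female 3 highest for Psmg4 at 112 (next 90.7). These are normalized counts.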

How the results depend on the processing

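The count of members called for lithium in HT (14) was 14 with edgeR, 15 with DESeq2, 12 after quantile normalization, 10 with length and GC trends removed, 9 with only the groups compared in the fit, 5 in females alone, 1 in males alone and 0 with a term for Gm10221 reads. With single libraries left out it ran from 8 to 16. For lithium in WT (1) it was 2 with edgeR, DESeq2, quantile normalization, only the groups compared and sex additive without the Gm10221 term. It was 0 in females alone, in males alone and with the Gm10221 term, and 0 to 2 with single libraries left out (0 without WT lithium female 2, WT lithium male 3, WT vehicle male 1 or WT vehicle male 2). For fluoxetine in HT (2) it was 4 with only the groups compared, 1 with length and GC trends removed (with or without the block), 0 in males alone, with the Gm10221 term and in libraries without these reads, and 0 to 3 with single libraries left out (0 without HT fluoxetine male 2, 1 without HT vehicle male 2 or HT vehicle male 5). The cause of these shifts was not tested. The counts here stand without the share of all genes called in the same setting, so they do not tell whether the members alone moved. For fluoxetine in WT and all genotype, interaction and by-sex comparisons the count was 0 in each setting run. With replicate number as a block the counts were 13 for lithium in HT, 1 for lithium in WT and 2 for fluoxetine in HT. Deviations of same-numbered libraries correlated over 0.1 in 32 of 141 pairs. The mean correlation was 0.00777 (-0.338 to 0.391), against -0.00184 in pairs of different number, so the numbers are not taken as pairs. They come from the sample titles, and for WT vehicle male 3 and WT vehicle male 4 the library name carries another number. Most of the 6525 recomputed values of single members belong to results not called in the main fit, which have no call to lose. Of those called there, 0 changed sign and 112 lost the call. Under lithium in HT, Psmd3 lost its call in 17 of 34 settings and Psma1 in 16 of 34. Psmb1 kept its call under lithium in HT in 33 of 34 settings, most of which left out 1 library. It lost the call with the term for Gm10221 reads, a feature that cannot be told apart from lithium.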
